A study of Mus musculus with 15 samples.

Results

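The genes described here are 8 of the 20610 in the deposited table: the fibroblast growth factor (FGF) receptor genes Fgfr1, Fgfr2, Fgfr3 and Fgfrl1, the ligand genes Fgf1, Fgf2 and Fgf9, and the gene of the intracellular family member Fgf13. They were chosen by gene symbol, and each symbol matched 1 row. Transcript levels are given as TPM (a length-scaled share of the transcripts of a library, out of 1000000) in 15 RNA-seq libraries of polyA RNA. Each cell type, neurons, astrocytes or microglia, is represented by 5 libraries (n = 5), made from cells that were pulled out of cortical tissue with magnetic beads. All mice were wild-type (WT) males at postnatal day 28. No treatment, transgene or Cre line is named in the labels. Nothing in them says which animals a library came from, and the p-values therefore measure the spread between libraries, which may be technical.

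FGFs are secreted signals that bind receptor tyrosine kinases on the cell surface together with heparan sulfate chains, and bound receptors pass the signal on through the adaptor Frs2 and the Ras-MAPK cascade. Fgfrl1 binds ligand but lacks the tyrosine kinase domain of the other receptors. Fgf1 and Fgf2 leave cells without a classical signal peptide, and Fgf9 is released by the secretory route. Fgf13 and its relatives, the FGF homologous factors, stay inside the cell and bind voltage-gated sodium channels. In the brain, Fgfr3 is widely used as a marker of astrocytes.

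The sequences ahead of 3 start sites are shown as examples. Fgfr3 and Fgfrl1 were called higher in astrocytes than in both other cell types, and Fgf9 was called higher in neurons. Each is the stretch from 250 to 51 bases before a RefSeq start (GRCm38.p6, plus strand, 5′ to 3′). For Fgfr3 it ends just before the earliest annotated exon, while those of Fgfrl1 and Fgf9 lie inside the gene spans given below. RefSeq promoters were matched for 6 of the 8 genes. No window was matched for Fgfr1, and Fgf1 was left out of the matching, so it was not searched. Capitals mark matches, on either strand, to GGGCGG (GC box), CAGCTG (E-box), TTGGC (part of the NFI site) and TGACG (part of the CRE site).
Fgfr3, chr5:33721474-33721673: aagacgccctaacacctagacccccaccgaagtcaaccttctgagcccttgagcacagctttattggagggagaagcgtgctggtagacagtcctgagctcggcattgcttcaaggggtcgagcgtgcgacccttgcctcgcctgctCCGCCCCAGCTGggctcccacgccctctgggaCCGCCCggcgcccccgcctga
Fgfrl1, chr5:108693979-108694178: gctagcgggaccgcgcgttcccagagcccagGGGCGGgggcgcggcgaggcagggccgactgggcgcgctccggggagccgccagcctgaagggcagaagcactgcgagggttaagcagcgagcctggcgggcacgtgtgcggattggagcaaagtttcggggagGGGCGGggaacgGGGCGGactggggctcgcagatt
Fgf9, chr14:58072436-58072635: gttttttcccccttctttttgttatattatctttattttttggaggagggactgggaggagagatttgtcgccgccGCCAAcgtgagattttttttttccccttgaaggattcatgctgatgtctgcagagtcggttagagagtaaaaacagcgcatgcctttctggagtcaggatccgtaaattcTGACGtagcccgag

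The GC box was found 2 times ahead of Fgfr3 and 3 times ahead of Fgfrl1, and it is present in 24.6% of the 32851 RefSeq windows of 200 bases. Ahead of Fgfr3 one GC box adjoins the single E-box, a motif found in 10.3% of windows. A second Fgfr3 window, chr5:33722056-33722255, which is not printed, held 2 GC boxes and no E-box. The Fgf9 stretch held TTGGC 1 time (34.9% of windows) and TGACG 1 time (12.7% of windows), and no GC box. ACAAAG (SOX core, 13.6% of windows) and CGGAAG (ETS core, 9.25% of windows) were searched as well and are not in these letters. The G and C content was 65.0% for Fgfr3, 73.0% for Fgfrl1 and 45.0% for Fgf9. Fgfr2, also called higher in astrocytes, had a matched window at chr7:130266859-130267058 that is not printed. Like the Fgf9 stretch it held TTGGC 1 time and no GC box, and its G and C content was 44.0%. Astrocyte-high genes thus did not share the GC box or a high G and C content. These matches describe the letters only, and the expression data hold no measurement of factor binding.

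The receptors are paralogs, so the stretches that their mRNAs share bear on how far reads can be assigned. The longest identical run between annotated coding sequences of Fgfr1 and Fgfr3 was 26 bases, shorter than the 150-nt reads named in the labels.
Fgfr1 and Fgfr3: gagatggagatgatgaaaatgattgg
Fgfr2 and Fgfr3 shared at most 17 bases, Fgfrl1 shared at most 16 with any of the other receptors, and Fgf13 shared at most 14 with its relative Fgf12.

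Markers of neurons, astrocytes and microglia were each highest in the isolates of that label. Each isolate also held transcripts of other cells, and in neuron isolates these exceeded the pan-neuronal ones. The 12 astrocyte markers summed to 22395 to 25508 TPM in astrocyte libraries and to at most 738.8 TPM in any other library, and the 12 microglia markers to at least 74589 TPM in microglia and at most 249.6 elsewhere. The 12 pan-neuronal markers summed to 1122 ± 370.8 TPM in neurons (mean ± SD, n = 5), 195.6 ± 50.2 in astrocytes and 66.7 ± 40.4 in microglia. Endothelial markers (11 genes) reached 8773 ± 1512 TPM in the neuron isolates, and mural markers (10 genes) 3447 ± 944.8. The endothelial sum, at least 7160 TPM, and the mural sum, at least 2395 TPM, were above the pan-neuronal sum in every neuron library. That pan-neuronal sum was at most 1707 TPM. Mature oligodendrocyte markers (12 genes) ranged from 251.1 to 69522 TPM across microglia libraries, from 128.5 to 10302 across neuron libraries and from 456.7 to 3814 across astrocyte libraries. In neuron libraries 1 and 2 they summed to 8403 and 10302 TPM, above pan-neuronal sums of 933.1 and 730.0 TPM. No marker of any list was at 0 in all 5 libraries of a group. In such bulk isolates, fewer cells of a type and less RNA per cell cannot be told apart. The part of endothelial, mural and oligodendrocyte transcripts in the neuron levels given below was not tested for any gene.

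**Figure D1:**
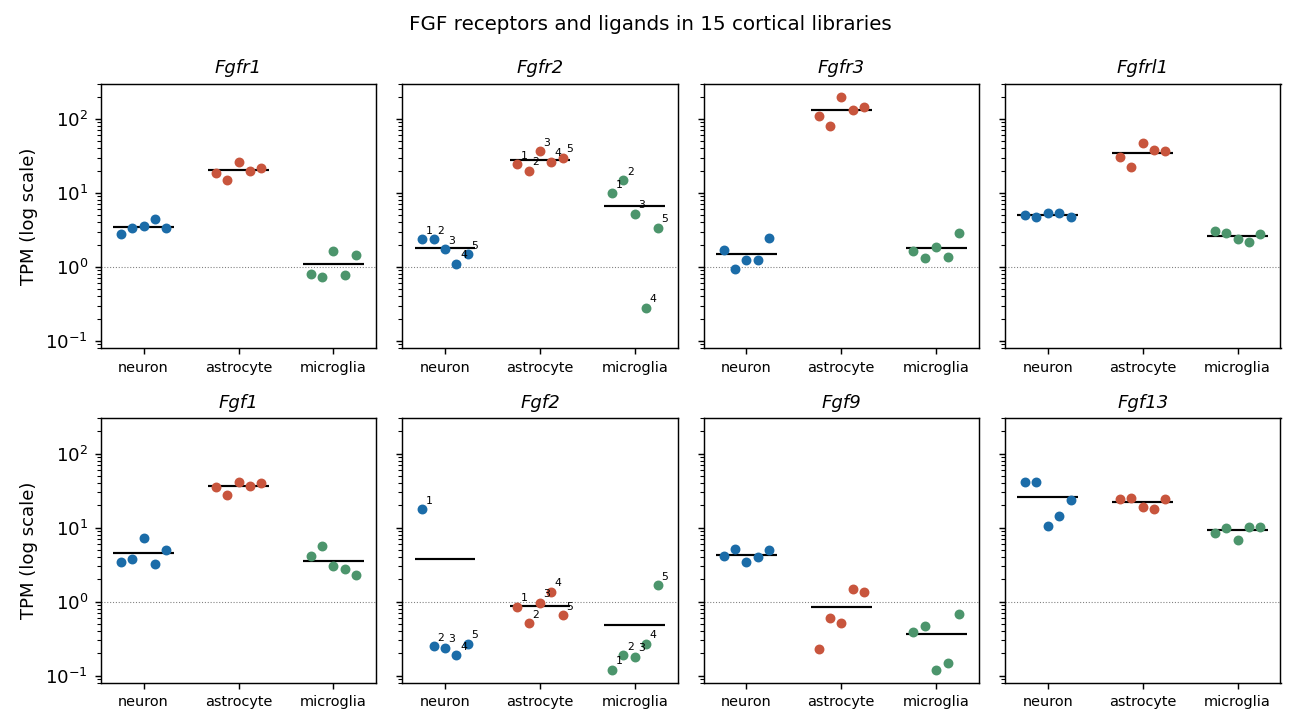
TPM on a log scale (vertical axis) of the 8 genes in the 5 neuron, 5 astrocyte and 5 microglia libraries. Points are libraries in order of replicate number, bars are group means, the dotted line is 1 TPM, and digits name the replicates of Fgfr2 and Fgf2. All astrocyte points of Fgfr1, Fgfr2, Fgfr3, Fgfrl1 and Fgf1 lie above the points of the other cell types, and Fgf2 in neuron library 1 stands at 17.73 TPM.

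Fgfr3 was the most abundant of the 8 genes in astrocytes and one of the least abundant in neurons. Its gene lies at chr5:33721674-33737068 on the plus strand (mm10). In astrocyte libraries 1 to 5 it was at 111, 79.8, 195, 134 and 143 TPM, against 1.68, 0.94, 1.23, 1.24 and 2.45 in neurons and 1.62, 1.32, 1.85, 1.35 and 2.84 in microglia. The lowest astrocyte library was thus above the highest of the other libraries, and neurons and microglia overlapped. Astrocyte libraries averaged 132.6 ± 42.7 TPM, neuron libraries 1.51 ± 0.589 and microglia libraries 1.80 ± 0.622, a ratio of means of 88.0 over neurons and 73.9 over microglia. Differences were tested as log2(TPM + 1), a scale that makes them look smaller for weakly expressed genes. Neurons minus astrocytes was -5.70 ± 0.23 (SE, limma adjusted p = 7.96e-13) and astrocytes minus microglia 5.54 ± 0.23 (adjusted p = 3.43e-13). Neurons minus microglia was -0.16 (95% interval -0.63 to 0.31, adjusted p = 0.541).

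Fgfrl1, the receptor without a kinase domain, was also highest in astrocytes, and neurons stood above microglia. The gene lies at chr5:108692382-108706924. Astrocyte libraries held 30.5, 22.2, 47.3, 38.1 and 36.6 TPM, neuron libraries 5.09, 4.70, 5.33, 5.44 and 4.66, and microglia libraries 3.08, 2.87, 2.39, 2.18 and 2.75. No 2 groups overlapped. Astrocytes averaged 34.9 ± 9.30 TPM, neurons 5.04 ± 0.356 and microglia 2.65 ± 0.365, and the neuron libraries were close to each other, with a coefficient of variation of 7.05%. Neurons were below astrocytes by a log2 difference of -2.53 ± 0.17 (limma adjusted p = 1.26e-09), and astrocytes above microglia by 3.26 ± 0.17 (adjusted p = 1.26e-11). The neuron and microglia levels differed by 0.73 ± 0.17 (adjusted p = 0.00114), below the log2 difference of 1 required for a call.

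Fgfr1, a receptor with a broad tissue range, lies at chr8:25513654-25575718. It was at 18.7, 15.1, 26.3, 19.5 and 21.7 TPM in astrocyte libraries, 2.78, 3.34, 3.63, 4.43 and 3.31 in neurons and 0.80, 0.74, 1.66, 0.79 and 1.46 in microglia. Astrocytes were highest and microglia lowest, with no overlap between any of the groups. The log2 difference was -2.23 ± 0.18 for neurons minus astrocytes (limma adjusted p = 1.13e-08), 3.35 ± 0.18 for astrocytes minus microglia (adjusted p = 1.46e-11) and 1.12 ± 0.18 for neurons minus microglia (adjusted p = 2.47e-05). The call between neurons and microglia ended with median-of-ratios scaling (0.75), quantile normalization (0.48), array weights (0.98) and without microglia libraries 1 and 2 (0.98), since the difference fell below 1.

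Fgfr2 was also highest in astrocytes but varied widely between microglia libraries. Astrocyte libraries 1 to 5 held 24.4, 19.9, 36.4, 26.5 and 30.0 TPM (mean 27.4 ± 6.19), and neuron libraries 2.38, 2.38, 1.74, 1.10 and 1.49 (1.82 ± 0.561). Microglia libraries 1 to 5 held 9.92, 14.8, 5.26, 0.28 and 3.38 TPM (6.72 ± 5.70). The microglia values thus ran from below every neuron library to 14.8 TPM, still below the lowest astrocyte library. Differences of -3.33 ± 0.46 for neurons minus astrocytes (limma adjusted p = 8.16e-06) and 2.29 ± 0.46 for astrocytes minus microglia (adjusted p = 2.35e-04) passed the test. Neurons minus microglia was -1.04 ± 0.46 (adjusted p = 0.0525) and was not called.

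The mature oligodendrocyte sum in the same microglia libraries was 69522, 51665, 6696, 251.1 and 8144 TPM. Libraries 1 and 2, highest in Fgfr2, were highest in that sum, and library 4 was lowest in both. The same held for the pan-neuronal sum and for the sum of 10 oligodendrocyte precursor markers. The precursor sum had the order of Fgfr2 in all microglia libraries, from 14.8 TPM in library 4 to 225.0 in library 2. Without libraries 1 and 2 the microglia mean of Fgfr2 was 2.97 ± 2.51 TPM (n = 3). Neuron libraries 1 and 2, with mature oligodendrocyte sums of 8403 and 10302 TPM, had the highest Fgfr2 of the neurons as well. The precursor sum was instead highest in neuron library 4 (313.9 TPM), which had the lowest Fgfr2 of the neurons. In astrocytes the order differed, since library 2 had the highest mature oligodendrocyte sum (3814 TPM) and the lowest Fgfr2. The part of oligodendrocyte, precursor or neuronal transcripts in the Fgfr2 levels was not tested. Leaving out microglia library 4 made Fgfr2 higher in microglia than in neurons past the threshold (-1.58), as did the fit with the replicate number as a block (-1.04). It also passed with both scalings (-1.48 and -1.67), with array weights (-1.03), and without all libraries numbered 3 and 4 (-1.58).

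Annotation adds a limit to Fgfr2. In GENCODE vM21 on mm10 its gene spans chr7:130162451-133123350 on the minus strand, 2961 kb that hold parts of 69 other genes, and its exons overlap those of Ctbp2 on the same strand. The annotation behind the deposited values is not given in the sources used here, so whether reads of Ctbp2 entered the Fgfr2 value was not tested. Fgfr3 has an antisense partner, G630022F23Rik, with no row in the table, and Fgfr1 overlaps Gm16159 on the opposite strand. Whether strand was used in counting is not stated.

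**Figure D2:**
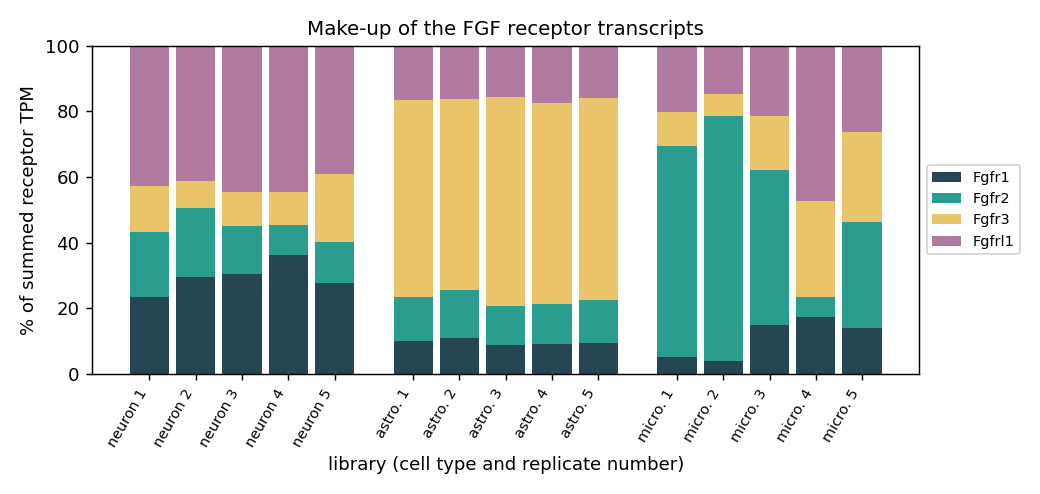
Share of the summed TPM of Fgfr1, Fgfr2, Fgfr3 and Fgfrl1 that each receptor took (vertical axis, %) in each of the 15 libraries. Fgfr3 takes 58.2% to 64.0% in every astrocyte library, Fgfrl1 39.1% to 44.7% in every neuron library, and Fgfr2 between 6.09% and 75.0% in microglia libraries.

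The order of the receptors by transcript level differed between the cell types, given here as a description with no test. Summed over the 4 genes, astrocyte libraries held 215.3 ± 62.1 TPM of receptor transcripts, neuron libraries 11.9 ± 0.310 and microglia libraries 12.3 ± 5.67. In astrocytes Fgfr3 took 61.1 ± 2.12% of that sum, Fgfrl1 16.3 ± 0.766%, Fgfr2 13.0 ± 1.03% and Fgfr1 9.62 ± 0.969%, and the ranges of these shares did not overlap, so the order held in all 5 libraries. The total varied between 137.0 and 305.2 TPM. Library 3 was highest and library 2 lowest for each of the 4 receptors and for Fgf1.

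Neuron libraries had another order. Fgfrl1 took 42.5 ± 2.33% of receptor TPM and Fgfr1 29.4 ± 4.69%, with no overlap between these shares, followed by Fgfr2 (15.4 ± 5.03%) and Fgfr3 (12.7 ± 4.89%), whose ranges overlapped. In microglia Fgfr2 took 45.0 ± 27.2%, from 75.0% in library 2 to 6.09% in library 4. In library 4, which had the least oligodendrocyte transcripts, Fgfrl1 took the largest share, 47.4%.

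Among the secreted ligands, Fgf1 followed the receptors and Fgf9 did not. Fgf1, a ligand of all FGF receptors with a kinase domain, lies at chr18:38838673-38929472. Its level was 35.4, 27.7, 41.6, 36.9 and 40.3 TPM in astrocyte libraries, 3.39, 3.72, 7.25, 3.26 and 4.94 in neurons and 4.16, 5.74, 3.03, 2.75 and 2.29 in microglia. All astrocyte libraries were above all others, and neurons overlapped microglia. Neurons minus astrocytes was -2.80 ± 0.22 (limma adjusted p = 7.49e-09) and astrocytes minus microglia 3.06 ± 0.22 (adjusted p = 7.09e-10). Neurons minus microglia was 0.26 (95% interval -0.19 to 0.72, adjusted p = 0.291), and this uncalled difference was below 0 with median-of-ratios scaling (-0.23) and quantile normalization (-0.31).

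Fgf9, a secreted ligand first described as a glia-activating factor, lies at chr14:58070547-58112720. Neuron libraries held 4.13, 5.09, 3.40, 3.96 and 4.97 TPM, astrocyte libraries 0.23, 0.61, 0.51, 1.5 and 1.37, and microglia libraries 0.39, 0.47, 0.12, 0.15 and 0.69. Every neuron library was above every other library, and astrocytes overlapped microglia. The log2 difference was 1.57 ± 0.19 over astrocytes (limma adjusted p = 2.30e-06) and 1.97 ± 0.19 over microglia (adjusted p = 6.68e-08). Astrocytes minus microglia was 0.40 (95% interval -0.01 to 0.81, adjusted p = 0.0728), and -0.15 with quantile normalization. Since 5 neuron libraries at 1 TPM or more suffice for the expression filter, Fgf9 would have entered the test through neurons alone. It was not tested with a filter of 5 TPM or without all libraries numbered 3 and 4. The neuron libraries that held Fgf9 also held the endothelial sum of 8773 ± 1512 TPM, whose part in this difference was not tested.

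Fgf2, a ligand with growth-promoting effects on neural progenitors, lies at chr3:37348346-37410108 and was low in all libraries but one. Neuron library 1 held 17.73 TPM and the other neuron libraries 0.25, 0.24, 0.19 and 0.27. Astrocyte libraries held 0.85, 0.51, 0.97, 1.4 and 0.66 TPM, and microglia libraries 0.12, 0.19, 0.18, 0.27 and 1.66. The neuron mean of 3.74 ± 7.82 TPM rested on library 1 and was 0.237 ± 0.0340 without it (n = 4), below every astrocyte library. Likewise the microglia mean of 0.484 ± 0.660 was 0.190 ± 0.0616 without library 5 (n = 4). Fgf2 missed the filter and was not tested with it. Without the filter none of its differences passed (limma adjusted p = 0.807, 0.455 and 0.583). Its exons overlap Nudt6 on the opposite strand, which was at 5.80 TPM in neuron library 1 and 4.97 to 6.48 in the other neuron libraries.

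Fgf13 was the most abundant of the 8 genes in neurons on average, and its level did not separate neurons from astrocytes. The gene lies at chrX:59062145-59568071. Neuron libraries held 40.9, 41.3, 10.6, 14.4 and 23.9 TPM, astrocyte libraries 24.2, 25.3, 19.3, 18.1 and 24.4, and microglia libraries 8.58, 9.95, 6.80, 10.3 and 10.4. Neuron libraries 1 and 2 lay above and libraries 3 and 4 below all astrocyte libraries. Neurons minus astrocytes was 0.05 (95% interval -0.56 to 0.67, limma adjusted p = 0.887), and its sign turned without neuron library 1 or 2 (-0.15 each).

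Fgf13 was called higher than in microglia in both other cell types, by 1.25 ± 0.29 in neurons (limma adjusted p = 9.90e-04) and 1.19 ± 0.29 in astrocytes (adjusted p = 0.00136). Median-of-ratios scaling took these differences below 1 (0.68 and 0.55), as did quantile normalization (0.86 and 0.65). Leaving out all libraries numbered 1 and 2 gave 0.72 for neurons. Across neuron libraries the levels followed the mature oligodendrocyte sums of 8403, 10302, 128.5, 162.7 and 1531 TPM, the order of library 3 and 4 included. Without libraries 1 and 2 the neuron mean was 16.3 ± 6.86 TPM against 26.2 ± 14.4 with them. Across astrocyte libraries Fgf13 also had the order of these sums, which were 1123, 3814, 638.6, 456.7 and 1301 TPM. In microglia, libraries 1 and 2 held far larger oligodendrocyte sums, and their Fgf13 lay within the range of the other microglia libraries. The part of oligodendrocyte transcripts in the Fgf13 levels was not tested.

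**Figure D3:**
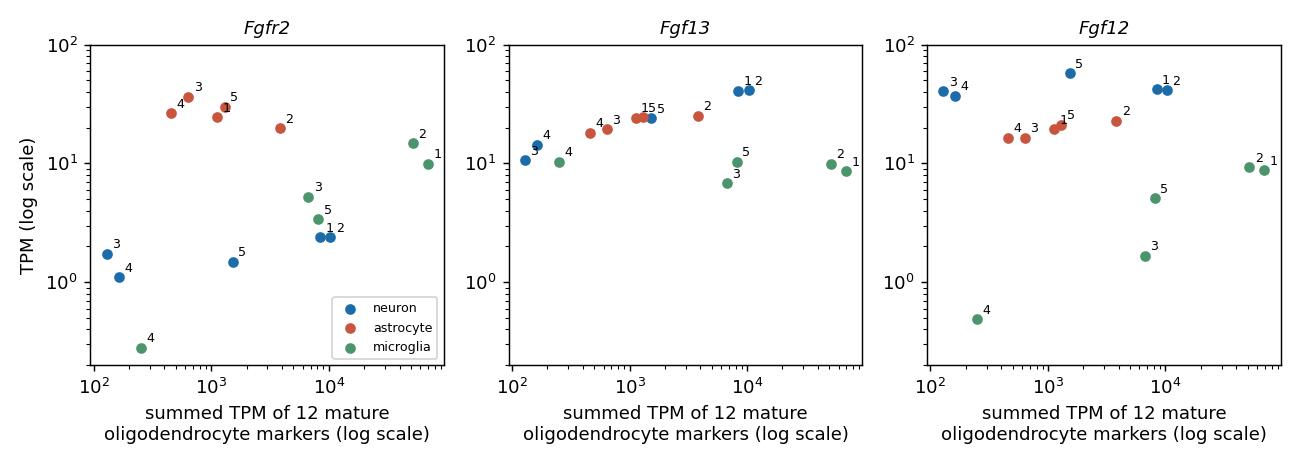
TPM of Fgfr2, Fgf13 and Fgf12 (vertical axes, log scale) against the summed TPM of 12 mature oligodendrocyte markers (horizontal axes, log scale) in the 15 libraries, coloured by cell type and numbered by replicate. In microglia, Fgfr2 and Fgf12 are lowest in library 4, at 0.28 and 0.49 TPM, where the marker sum is lowest, and in neurons Fgf13 is highest in libraries 1 and 2, with the largest neuron sums. The pan-neuronal sum, which is not drawn, is lowest in microglia library 4 as well.

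**Figure D4:**
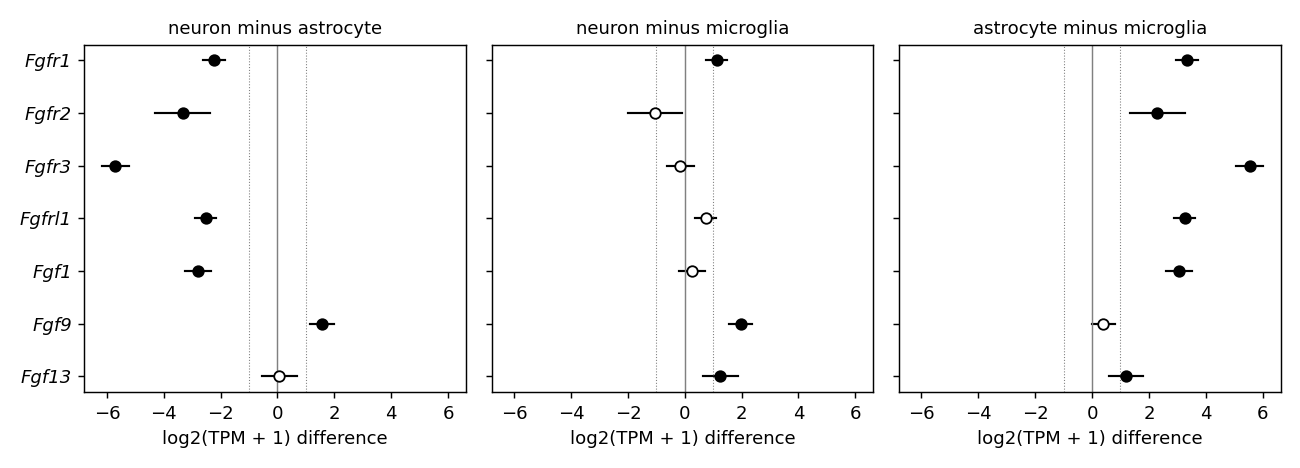
Differences in log2(TPM + 1) of the 7 tested genes for each pair of cell types (points), with 95% intervals (lines). Filled points passed an adjusted p below 0.05 and a log2 difference of at least 1 (dotted lines). Fgfr1, Fgfr2, Fgfr3, Fgfrl1 and Fgf1 favour astrocytes over both other cell types.

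Counted together, 7 of the 8 genes passed the expression filter. Of all 13351 tested genes, 25.6% were called between neurons and astrocytes, 39.3% between neurons and microglia and 42.5% between astrocytes and microglia. Between neurons and astrocytes 5 of the FGF genes were called higher in astrocytes, where 12.7% of all tested genes were, and 1 (Fgf9) was called higher in neurons, where 12.9% were. Between astrocytes and microglia 6 were called higher in astrocytes, against 32.3% of all tested genes, and 0 higher in microglia (10.2%). Between neurons and microglia 3 were called higher in neurons (29.5% of all) and 0 higher in microglia (9.74%). The 5 genes higher in astrocytes than in both other cell types were Fgfr1, Fgfr2, Fgfr3, Fgfrl1 and Fgf1, a pattern held by 10.2% of tested genes. Fgf9 was higher in neurons than in both, as were 9.58% of tested genes, and 0 were higher in microglia than in both, as 7.42% were. Groups did not overlap for 6 of the 7 between neurons and astrocytes (39.0% of all), for 4 between neurons and microglia (54.3%) and for 6 between astrocytes and microglia (58.4%). The median log2 difference was -2.53, 0.73 and 3.06 for the 3 comparisons in the order neuron minus astrocyte, neuron minus microglia and astrocyte minus microglia, against -0.03, 0.48 and 0.57 over all tested genes.

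The distance of microglia from the other cells depends on scaling. Median-of-ratios scaling and quantile normalization shifted the median of all genes by -0.51 and -0.45 for neurons minus microglia and by -0.54 and -0.52 for astrocytes minus microglia. The share of calls that were higher in neurons fell from 75.2% to 55.8% and 55.6%, and that higher in astrocytes from 76.0% to 53.4% and 54.7%. Fgfr1, Fgfr2, Fgfr3, Fgfrl1 and Fgf1 stayed called higher in astrocytes than in microglia under both.

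The levels of the receptors and Fgf1 moved together across the 15 libraries, which share the differences between cell types described above. Pearson's r of log2(TPM + 1) was 0.98 for Fgfr1 with Fgfrl1, 0.96 for Fgfr3 with Fgfrl1 and 0.96 for Fgfr3 with Fgf1, and 0.69 to 0.85 for Fgfr2 with the other 4. Fgf9 gave 0.00 with Fgfr1 and -0.47 with Fgfr2. Among all tested genes, the patterns most like Fgfr3 were those of Psd2 (r = 0.9971), Hhatl (0.9962) and Slc7a11 (0.996), and those most like Fgfrl1 were Sox2 (0.9958), Nim1k (0.9952) and Slc1a4 (0.9951). Genes much like Fgfr1 included Slc41a1 (0.9955) and Tril (0.9931), and Fgfr2 was most like Thbs3 (0.9878), Ccdc13 (0.98) and Olfml1 (0.979). Fgf1 was most like Nsdhl (0.9881), Rab5a (0.9838) and Insig1 (0.9836). Nsdhl is an enzyme of cholesterol synthesis and Insig1 a regulator of that pathway. The closest patterns to Fgf9 were those of Fam43b (0.9746), Znrf1 (0.9742) and Tceal6 (0.9722), and to Fgf13 those of St6galnac6 (0.965), Zfp523 (0.9373) and Ids (0.935). These correlations over 15 libraries are descriptions, since the libraries share cell types and replicate numbers.

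Of 15 other secreted FGF genes, 3 passed the filter, and the 12 others reached at most 0.61 TPM in any library. Fgf18 reached 6.0 ± 2.09 TPM in astrocyte libraries, with 0.916 ± 0.381 for neurons and 0.136 ± 0.125 for microglia, and was called higher in astrocytes than in neurons (log2 difference -1.84, neurons minus astrocytes) and than in microglia (2.57). Fgf7, a ligand best known from epithelia, was at 3.72 ± 1.57, 0.728 ± 0.391 and 0.370 ± 0.246 TPM and was likewise called (-1.41 and 1.73). Fgf7 and Fgf18 reached 1 TPM in fewer than 5 libraries outside astrocytes. Both thus passed the filter only with the astrocyte libraries, where they are high, and their calls follow in part from it. Fgf22 was not called in any comparison. Of the 3 tested, 2 were thus higher in astrocytes than in neurons (12.7% of all tested genes) and than in microglia (32.3% of all). Neither Fgf7 nor Fgf18 was tested with the filter of 5 TPM. The 2 calls in each comparison with astrocytes became 1, that of Fgf18, without all libraries numbered 1 and 2 and without those numbered 3 and 4, where Fgf7 was not tested. As a share of the 6 secreted ligands above, Fgf1 took 74.4 ± 6.76% of TPM in astrocytes. In neurons Fgf1 and Fgf9 took 34.6 ± 14.8% and 33.7 ± 14.0%, while Fgf2 took 62.8% in library 1.

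Fgf12, another intracellular family member, was highest in neurons. Neuron libraries held 42.3, 41.2, 40.5, 37.3 and 57.2 TPM, astrocyte libraries 19.4, 22.8, 16.5, 16.4 and 21.2, and microglia libraries 8.77, 9.28, 1.67, 0.49 and 5.08. The groups did not overlap. It was called higher in neurons than in astrocytes (1.14, limma adjusted p = 0.0215) and microglia (3.22, adjusted p = 1.06e-06), and in astrocytes than in microglia (2.08). The first of these calls ended with a pseudocount of 0.1 (1.17) and without neuron library 5 (1.04), where adjusted p rose above the threshold. Among microglia the order of Fgf12 followed Fgfr2 in part, with libraries 1 and 2 highest and library 4 lowest in both, and 2.41 ± 2.38 TPM was left without libraries 1 and 2 (n = 3). The pan-neuronal sum had the order of Fgf12 in all microglia libraries, from 19.6 TPM in library 4 to 109.4 in library 2. The oligodendrocyte sum had that order too, except that library 1 was above library 2. The part of neuronal or oligodendrocyte transcripts in the microglia level of Fgf12 was not tested. Fgf11 was not called in any comparison, and Fgf14 missed the filter, with at most 1.62 TPM.

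**Figure D5:**
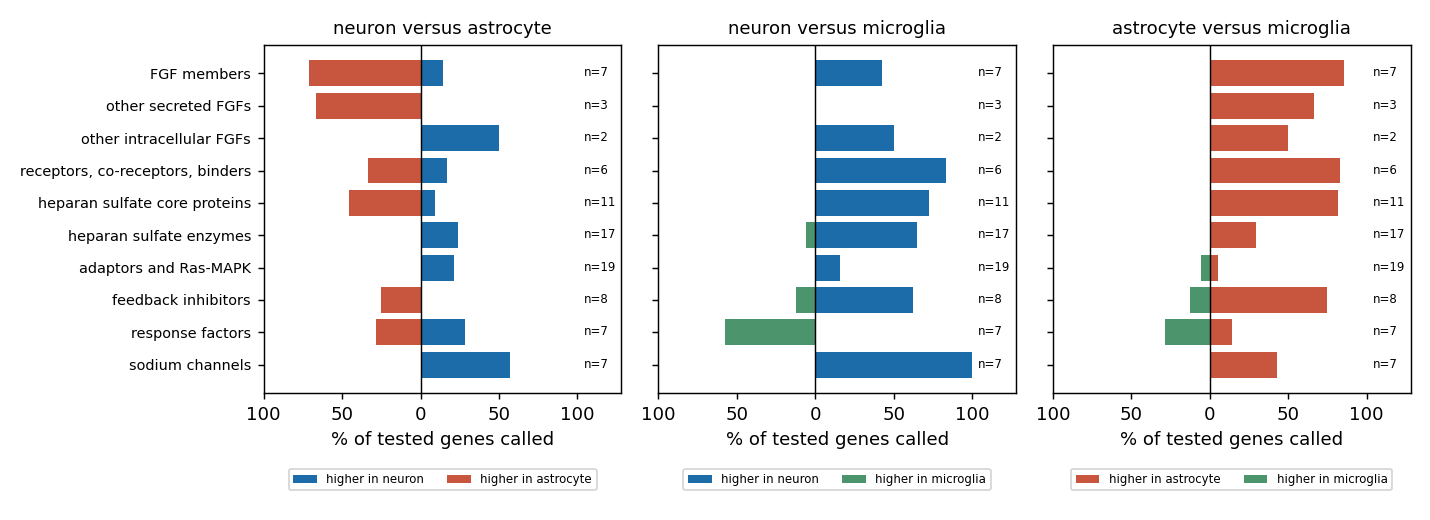
Share of the tested genes of each list that were called higher in one cell type (bars, % of tested genes, to either side of 0), with the number tested at the right, for the 3 comparisons. Against astrocytes 4 of 7 sodium channel genes stand on the neuron side (12.9% of all tested genes), and against microglia 7 of 7 (29.5%). Among the tested channel genes, Scn1a and Scn4b passed the filter through neurons alone. Against neurons 4 of 7 response factors stand on the microglia side (9.74% of all tested genes).

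Of 10 further receptors, co-receptors and FGF-binding proteins, 6 were tested. Fgfr4, Kl, Klb and Flrt1 were below the filter, with at most 2.39 TPM. Between neurons and astrocytes 1 was higher in neurons (12.9% of all tested genes) and 2 in astrocytes (12.7%). L1cam, a neural adhesion gene, averaged 3.59 ± 1.59 TPM in neurons against 0.846 ± 0.359 in astrocytes. Ncam1, another adhesion gene, averaged 224.6 ± 55.6 TPM in astrocytes against 43.29 to 69.12 in neuron libraries. Fgfbp3, which codes for an FGF-binding protein, averaged 13.0 ± 2.75 against 2.87 ± 0.946 TPM. In each comparison with microglia 5 of 6 were lower in microglia, against 29.5% of all tested genes for neurons and 32.3% for astrocytes. Fgfbp1, which carries FGFs out of the matrix, reached 30.6 ± 7.77 TPM in astrocyte, 28.5 ± 6.47 in neuron and 3.38 ± 1.47 in microglia libraries. Those counts of 5 fell to 2 and 3 with the filter of 5 TPM. The list's median log2 difference was 0.06, 1.76 and 2.12 in the same order of comparisons as above.

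Heparan sulfate core proteins carry the chains that bind FGFs. Of 11 tested of 12, 5 were higher in astrocytes than in neurons (12.7% of all tested genes) and 1 lower (12.9% of all), and 9 were higher in astrocytes than in microglia (32.3% of all) with 0 lower (median -0.49 and 2.36). Gpc5, a glypican, reached 102.3 ± 15.2 TPM in astrocyte, 3.89 ± 1.83 in neuron and 2.35 ± 0.896 in microglia libraries (log2 differences of -4.49 for neurons minus astrocytes and 4.98 for astrocytes minus microglia). Sdc4, a syndecan, was at 110.7 ± 26.1, 7.54 ± 2.62 and 11.1 ± 3.40 TPM in the same order. Agrn was the gene higher in neurons than in astrocytes (1.18). Gpc4, known as an astrocyte-secreted synapse-promoting factor, averaged 7.90 ± 2.39 TPM over astrocyte and 2.47 ± 1.06 over neuron libraries. Between neurons and microglia 8 were higher in neurons (29.5% of all) and 0 higher in microglia, with the largest differences for Gpc3 (3.04), Agrn (2.98) and Sdc2 (2.90).

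Among enzymes that build or trim heparan sulfate, the calls between neurons and astrocytes were all in favour of neurons. Of 17 tested of 20, 4 were higher in neurons than in astrocytes (12.9% of all tested genes) and 0 lower (median 0.43), a share of calls near the 25.6% of all tested genes called in either direction. They were the 3-O-sulfotransferase genes Hs3st1 (67.5 ± 21.8 against 17.1 ± 3.49 TPM), Hs3st2 (3.69 ± 0.654 against 1.03 ± 0.441) and Hs3st4 (3.99 ± 1.76 against 0.786 ± 0.344), and Sulf2, which removes sulfate outside the cell (51.0 ± 16.8 against 15.1 ± 4.57). This count was 7 with a pseudocount of 0.1 and 2 with a filter of 5 TPM. Hs6st2 passed the filter through neurons alone. Hs3st2, Hs3st4 and Ndst3 reached 1 TPM in fewer than 5 libraries of the other cell types. They thus passed the filter only with the neuron libraries, where they are high, and their part in the counts given here follows from it. Against microglia 11, Hs6st2 included, were higher in neurons (29.5% of all) and 1 lower (9.74% of all), Hs6st1 (1.63 ± 0.342 against 4.65 ± 0.986 TPM). Between astrocytes and microglia 5 were higher in astrocytes (32.3% of all), with Extl2 at 18.2 ± 3.47 and 4.20 ± 0.386 TPM. The 12 calls between neurons and microglia became 4 with the filter of 5 TPM, 5 with quantile normalization and 5 without all libraries numbered 3 and 4, where Hs6st1 was no longer called (-0.96). The 5 between astrocytes and microglia became 9 with a pseudocount of 0.1, and 3 with the filter of 5 TPM or without astrocyte library 3.

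Adaptors and Ras-MAPK genes link the receptors to ERK kinases. Of 19 genes, all tested, 4 were higher in neurons than in astrocytes and 0 lower, with a median of 0.28, and 25.6% of all tested genes were called in this comparison, a share near that of the list. Among them were Ptpn11 (17.9 ± 0.758 against 7.39 ± 0.660 TPM), Mapk3 (84.1 ± 12.1 against 36.6 ± 1.66) and Hras (172.5 ± 37.8 against 83.3 ± 15.2). The call of Hras ended under 6 alternatives, with differences of 0.94 to 0.99. Against microglia 3 were higher in neurons (29.5% of all tested genes), Hras and Plcg1 among them, and 6 were called with a pseudocount of 0.1 or without all libraries numbered 1 and 2. Plcg1 lost its call under 3 alternatives (0.69 to 0.91). Between astrocytes and microglia Cbl, which marks receptors for degradation, was higher in microglia (-1.11) except without microglia library 4, and 17 were not called. In that comparison 1 of 19 was higher in astrocytes (32.3% of all tested genes) and 1 in microglia (10.2% of all). Sos2 was called higher in astrocytes at the size limit, and not under 10 alternatives, astrocyte libraries 3 or 4 and microglia libraries 1, 2 or 4 left out singly among them. With median-of-ratios scaling 6 of the list were called between astrocytes and microglia, and 5 with quantile normalization. Of all 13351 tested genes, 4904 and 4519 were called there under these settings.

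Feedback inhibitors dampen FGF signalling inside the cell. Of 8 tested of 11, Spry2 (14.0 ± 4.04 TPM in astrocytes, 4.71 ± 1.38 in neurons) and Spred1 (12.9 ± 3.20 and 3.85 ± 0.403) were higher in astrocytes than in neurons (12.7% of all tested genes), and 0 were lower. Between astrocytes and microglia 6 were higher in astrocytes (32.3% of all) and 1 in microglia (10.2% of all). Between neurons and microglia 5 were higher in neurons (29.5% of all) and 1 in microglia (9.74% of all). The exception in both was Dusp6, a phosphatase of ERK kinases, with 209.4 ± 48.2 TPM in microglia against 48.7 ± 11.4 in astrocytes and 38.2 ± 15.2 in neurons (log2 differences of -2.08 and -2.47, limma adjusted p = 2.98e-07 and 3.85e-08). With both scalings the calls between astrocytes and microglia fell from 7 to 3, and with the filter of 5 TPM to 4. Those between neurons and microglia fell from 6 to 3 with quantile normalization and with the filter of 5 TPM.

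Transcription factors and other genes induced by FGF signalling did not move as one group. Of 7 tested of 8, 2 were higher in astrocytes than in neurons (12.7% of all tested genes), the ETS factors Etv4 (9.31 ± 1.64 against 0.928 ± 0.509 TPM) and Etv5 (23.1 ± 7.33 against 4.76 ± 0.956), and 2 were lower (12.9% of all), Egr1 (10.6 ± 1.78 against 36.9 ± 24.5) and the cyclin gene Ccnd1 (8.93 ± 3.0 against 26.2 ± 9.30). The call of Egr1 ended without all libraries numbered 3 and 4 (0.89). Against neurons 4 were higher in microglia (9.74% of all), Fos, Myc, Egr1 and Etv5 (list median -1.35), and 2 when all libraries numbered 1 and 2 were left out, where Fos (-2.02) and Egr1 (-1.27) were no longer called. Etv5 was not called without all libraries numbered 3 and 4 (-0.94). Fos and Egr1 are induced by many signals, and both were higher in microglia than in astrocytes (-2.88 and -2.96), while Etv4 was lower in microglia (2.91). Between astrocytes and microglia 1 was thus higher in astrocytes (32.3% of all tested genes) and 2 in microglia (10.2% of all). These 3 calls of 7 are near the 42.5% of all tested genes called there in either direction. They became 5 with both scalings and without microglia libraries 1 and 2.

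Sodium channel genes code for the proteins that Fgf13 and its relatives bind. Of 7 tested of 9, 4 were higher in neurons than in astrocytes (12.9% of all tested genes) and 0 lower (median 1.10), and 7 were higher in neurons than in microglia (29.5% of all; median 1.67). Scn1a and Scn4b reached 1 TPM in neuron libraries only, so they passed the filter through the group where they are high, and their part in these counts and medians follows from the filter. Scn1a averaged 4.31 ± 1.98 TPM over neuron, 0.574 ± 0.259 over astrocyte and 0.128 ± 0.0610 over microglia libraries, and the accessory subunit gene Scn3b at 6.70 ± 2.42, 2.48 ± 0.625 and 0.324 ± 0.193. Scn8a averaged 4.05 ± 0.444 TPM in neurons against 4.80 ± 1.15 in astrocytes and was not called between them. The count between neurons and astrocytes was 2 without neuron library 5 or without all libraries numbered 1 and 2, and that between neurons and microglia 4 without neuron library 1, 2 or 5, without all libraries numbered 1 and 2, and with quantile normalization. The filter of 5 TPM left 1 called gene in each of these comparisons.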

How the data were processed

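RNA was measured in 15 libraries, 5 each of neurons, astrocytes and microglia. Per the labels' protocols, polyA RNA was read as 2 x 150 nt at an average of 30000000 reads per library. The submitters' processing notes name the genome mm10 and the tools RSEM 1.2.28, STAR 2.7.1a, DESeq2 1.36.0 and Trim Galore 0.6.4. The deposited values are TPM, which the authors scaled to 1000000 per library, so read depth per library is unknown and no counting interval is given; the annotation is not given in the sources used here.

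From the deposited TPM, log2(TPM + 1) was computed (pseudocount 1), and the 13351 genes that reached 1 TPM in 5 or more libraries entered 1 linear model over all 15 libraries (limma 3.58.1, R 4.3.3, variance trend). Genes were called at a Benjamini-Hochberg adjusted p below 0.05, adjusted over all tested genes, and a log2 difference of at least 1. Some called list genes, L1cam, Sdc1, Il17rd, Spred3 and Etv4 among them, would not have passed the filter without the group where they are high. The model was checked on simulated data. Gene positions were taken from GENCODE vM21 (mm10). Figures used Python 3.11.15 and matplotlib 3.10.9. No 2 libraries held identical values.

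The 8 genes, 9 pathway lists (107 genes) and 9 marker lists were chosen with earlier results of these data known. Named list genes are, for each list and comparison, up to 4 called genes with the largest differences, called genes against their list, all genes of lists of 3, and the 3 genes most correlated with each tested FGF gene. Fgf22, Fgfr4, Kl, Klb and Flrt1 were named after their values were seen. Some results that the rule selects are not reported here.

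Replicate numbers are shared between cell types. Deviations of same-numbered libraries from their group means correlated at 0.216 to 0.382 for neurons and microglia, above the set minimum of 0.1 in all 5 pairs, but at -0.0329 to 0.233 for neurons and astrocytes and -0.0110 to 0.249 for astrocytes and microglia. This pairing rests on the values, since the labels do not mention one. Alternatives were 12 other settings and each library left out in turn.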

Additional observations from a re-analysis of the deposited data

Results flagged for a closer look

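In 183 groups of 5 libraries (61 genes in 3 cell types), a library was set apart when its gap to the nearest other library exceeded 0.71 of the group's range (Dixon's test), which chance does in about 1 in 20 groups. This marked 8 values. Fgf2 in neuron library 1 stood at 17.73 TPM against 0.19 to 0.27 in the other neurons, and in microglia library 5 at 1.66 against 0.12 to 0.27. Fgf12 was at 57.18 TPM in neuron library 5 (37.27 to 42.34 in the others), and Fgfbp3 at 4.51 in neuron library 3 (2.16 to 2.78). Extl1 was at 3.61 TPM in microglia library 2 (0.21 to 1.02), Ptpn11 at 8.56 in astrocyte library 1 (7.01 to 7.20), Spry1 at 28.04 in neuron library 4 (14.63 to 17.32) and Scn2b at 5.76 in neuron library 5 (2.53 to 3.28).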

How the results depend on the processing

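Of the 8 genes, 6 were called between neurons and astrocytes (5 to 6 over the alternatives, 5 where Fgf9 was not tested), 3 between neurons and microglia (2 to 4) and 6 between astrocytes and microglia (5 to 6). With 1 library left out at a time the counts were 6, 3 to 4 and 6. The fit with the replicate block gave 6, 4 and 6, the only change in calls among the 8 genes being Fgfr2 between neurons and microglia (-1.04). Over all genes 3412, 5245 and 5672 were called, and the alternatives gave 2701 to 4252, 3805 to 6226 and 4358 to 6875 (with the replicate block 3433, 5256 and 5694). Signs turned only for differences that were not called. Fgf13 between neurons and astrocytes was -0.05 with array weights, -0.38 without libraries numbered 1 and 2, -0.15 without neuron library 1, -0.15 without neuron library 2 and -0.01 without astrocyte library 4, within a range of -0.15 to 0.32 with single libraries left out. Fgf1 between neurons and microglia was -0.23 with median-of-ratios scaling and -0.31 with quantile normalization, which also gave -0.15 for Fgf9 between astrocytes and microglia. Except for the scalings, dropping the filter (-0.26 and -0.28), the lower pseudocount (0.10 and 0.14) and leaving out libraries numbered 1 and 2 (0.12 for astrocytes minus microglia), no alternative moved the median of all genes by 0.1 or more. Counts of called genes in the pathway lists moved by over 1.5 times in 55 cases, spread over 18 of 27 list comparisons, and were within it in 674. Levels below 1 TPM, as for most Fgf2 values, carry an error that cannot be given without depth.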

Other observations

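Fos and Egr1, genes induced by many signals, differed between libraries of 1 cell type in a pattern shared by neurons and microglia. Fos was at 31.5, 26.5, 131, 193 and 17.4 TPM in neuron libraries 1 to 5 and at 257, 220, 899, 473 and 72.6 in microglia libraries 1 to 5, so libraries 3 and 4 were highest in both. In astrocytes it was at 31.3, 52.2, 34.1, 44.9 and 28.8 TPM, without that order. Egr1 showed the same high libraries, with 49.4 and 74.2 TPM in neuron libraries 3 and 4 (17.2 to 22.8 in the others) and 256 and 144 in microglia libraries 3 and 4 (30.5 to 71.3).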
